A study of Mus musculus with 16 samples.

Results

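Accessible chromatin was examined around 4 mouse genes, Tanc1, Zfp536, Tns3 and Dtd1, which lie at the loci that the study drew as examples of an unaffected, an OCT4-regulated, a SOX2-regulated and a jointly regulated accessibility track. The study's text and the caption of these tracks do not name the gene of each class. The order of the genes here therefore assigns no class to any of them. The study picked these examples from the same libraries, so that the loci are not a sample of the genome. A region of the merged accessibility list belonged to a gene when its centre lay in the gene body or within 100 kb of a transcription start site (TSS) of that gene in GENCODE M21 on mm10. Of the 81132 regions in the list, 91 (0.112%) met this rule. Tanc1 had 26 of them, Zfp536 13, Tns3 32 and Dtd1 20, and no region was shared between genes.

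The regions come from ATAC-seq on SBROS cells, a mouse embryonic stem (ES) cell line of CGR8 background in which both Sox2 alleles carry a SNAP-tag and 1 Oct4 allele carries a HALO-tag, together with reporters of the differentiation genes Sox1 and Brachyury. ATAC-seq uses the Tn5 transposase to place sequencing adapters in open DNA. Cells were grown in serum with LIF and the inhibitors CHIR99021 and PD184352, stained for both tags and for DNA, and sorted in G1 phase into 4 populations, with 3 replicates each. SHOH cells were high in SOX2 and in OCT4, SHOL cells high in SOX2 and low in OCT4, SLOH cells low in SOX2 and high in OCT4, and SLOL cells low in both. The list pools the peaks of all 12 libraries and gives positions without any level, so that the reads behind a region are not known from it, no replicate error can be attached to a region, and the 4 populations were not compared with each other. How many of the libraries contributed to a region is not given.

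OCT4 and SOX2 are transcription factors of the pluripotent state that can bind sites in closed chromatin. OCT4 recognises an octamer through its POU domains, SOX2 bends DNA at a short motif through its HMG box, and in ES cells both often bind side by side at distal enhancers, together with factors such as ESRRB and the KLF family. Open regions at gene starts, in contrast, are often rich in CpG dinucleotides and open in many cell types.

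The 4 genes differ in function. Tanc1 encodes a scaffold protein with ankyrin and tetratricopeptide repeats that is known from the postsynaptic density of neurons. Zfp536 encodes a zinc finger protein of the developing brain that acts as a transcriptional repressor. Tns3 encodes tensin 3, which links integrins to the actin cytoskeleton at focal adhesions. Dtd1 encodes a deacylase that frees tRNAs from wrongly attached D-amino acids.

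The following sequences show selected member regions with motif matches, on the plus strand of GRCm38.p6 from RefSeq, which has the coordinates of mm10. The Tns3 intron named for the most SOX motifs shared its number, 2, with other Tns3 regions. Capitals mark matches, on either strand, of the octamer ATGCAAAT, of the SOX motifs CCATTGT and CCTTTGT and, in the stretch named for 3 motifs, of the ESRRB motif TCAAGGTCA and the KLF motif CCACACCC. The Tns3 stretches with 3 motifs and with the close SOX pair were chosen after their values were seen.
Tanc1 intron with an octamer and a SOX motif, chr2:59617157-59617270: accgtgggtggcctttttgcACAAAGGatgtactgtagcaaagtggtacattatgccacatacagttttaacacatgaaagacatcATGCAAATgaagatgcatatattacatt
Tanc1 intron with the most SOX motifs (2 of its 4 shown), chr2:59698526-59698619: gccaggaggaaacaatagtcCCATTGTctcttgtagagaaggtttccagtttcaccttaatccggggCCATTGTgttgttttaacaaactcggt
Zfp536 intron with the most SOX motifs, chr7:37553771-37554067: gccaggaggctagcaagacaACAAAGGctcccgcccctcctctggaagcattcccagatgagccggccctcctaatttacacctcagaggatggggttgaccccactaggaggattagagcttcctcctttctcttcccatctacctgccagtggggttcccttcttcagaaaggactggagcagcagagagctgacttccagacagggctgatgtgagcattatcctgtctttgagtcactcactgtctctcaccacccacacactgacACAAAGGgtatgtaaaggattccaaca
Tns3 intron with the most SOX motifs, chr11:8569384-8569554: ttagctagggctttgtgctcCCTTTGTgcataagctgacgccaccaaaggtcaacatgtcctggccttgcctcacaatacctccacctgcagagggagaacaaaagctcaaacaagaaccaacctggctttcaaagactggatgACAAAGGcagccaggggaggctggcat
Tns3 upstream region with the close SOX pair, chr11:8719611-8719666: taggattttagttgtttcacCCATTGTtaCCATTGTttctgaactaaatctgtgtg
Tns3 upstream region with 3 motifs, chr11:8671727-8672017: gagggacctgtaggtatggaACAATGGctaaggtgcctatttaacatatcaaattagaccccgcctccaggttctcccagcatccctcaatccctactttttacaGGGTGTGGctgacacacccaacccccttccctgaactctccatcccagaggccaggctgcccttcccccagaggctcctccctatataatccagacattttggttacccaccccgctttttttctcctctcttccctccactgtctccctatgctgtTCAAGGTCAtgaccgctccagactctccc
Dtd1 intron with a SOX motif, chr2:144759582-144759628: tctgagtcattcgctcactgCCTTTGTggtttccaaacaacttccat

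A second set shows the base composition of the widest region in a promoter of each gene and of the widest region outside promoters, as 100 bases near the centre without untranslated sequence, with each CpG in capitals. The widest region of Tanc1 outside promoters is the intron with the most SOX motifs shown above, and the other Zfp536 promoter region was added after its values were seen.
Tanc1 promoter, chr2:59611942-59612041: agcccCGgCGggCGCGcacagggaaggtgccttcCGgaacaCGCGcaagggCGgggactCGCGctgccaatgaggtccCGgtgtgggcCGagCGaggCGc
Zfp536 promoter, chr7:37770540-37770639: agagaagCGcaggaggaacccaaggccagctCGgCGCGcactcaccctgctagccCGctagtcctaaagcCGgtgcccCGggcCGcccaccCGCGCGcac
Zfp536 other promoter region, chr7:37771870-37771969: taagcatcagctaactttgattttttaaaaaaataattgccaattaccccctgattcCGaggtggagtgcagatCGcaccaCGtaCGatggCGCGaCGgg
Zfp536 coding exon, chr7:37569014-37569113: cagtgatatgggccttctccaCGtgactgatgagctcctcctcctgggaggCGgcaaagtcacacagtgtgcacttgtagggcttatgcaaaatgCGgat
Tns3 internal promoter, chr11:8468744-8468843: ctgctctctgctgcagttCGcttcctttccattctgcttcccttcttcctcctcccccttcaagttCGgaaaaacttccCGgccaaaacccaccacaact
Tns3 intron, chr11:8575746-8575845: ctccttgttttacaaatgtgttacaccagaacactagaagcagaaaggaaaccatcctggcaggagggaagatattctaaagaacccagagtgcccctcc
Dtd1 internal promoter, chr2:144677310-144677409: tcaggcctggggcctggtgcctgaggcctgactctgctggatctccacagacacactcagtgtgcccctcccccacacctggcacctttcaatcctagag
Dtd1 intron, chr2:144715445-144715544: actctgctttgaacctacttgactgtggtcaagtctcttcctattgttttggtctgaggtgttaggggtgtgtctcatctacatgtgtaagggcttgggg
The 100 bases of the Tanc1 promoter held 14 CpGs and those of the Zfp536 promoter 11, both at start sites of protein-coding transcripts. The stretch of Tns3 held 3 and that of Dtd1 held 0, and both of these lie at internal start sites of transcripts not annotated as protein-coding. Over their whole width, the regions held 88 CpGs in 961 bp at Tanc1 and 51 in 527 bp at Zfp536. Those of Tns3 and Dtd1 held 25 in 448 bp and 0 in 178 bp. The narrower region just upstream of the protein-coding start of Tns3 held 6 in 141 bp. Regions centred just past the protein-coding starts of Tns3 and Dtd1 are not in this set, because their centres lay outside the promoter. They held 38 CpGs in 512 bp at Tns3 and 51 in 879 bp at Dtd1.

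Tanc1 (chr2:59612042-59846149, plus strand) spans 234 kb and has 11 annotated TSSs. Its 26 regions covered 9286 bp, or 2.16% of the 430 kb searched, and 22 of them lay inside the gene. Introns held 17 regions, promoters 5, exons 2 and intergenic sequence 2, where the class was that at the region's centre and a promoter comprised the 1000 bp before a TSS and the 100 bp after it. The widest region, chr2:59611547-59612507, measured 961 bp and was centred 15 bp upstream of the first TSS. It had a GC content of 67.7% and 88 CpGs, but held none of the 4 motifs. Inside the gene the regions became sparse towards the 3′ end: after chr2:59775931-59776284 no region followed for 64953 bp, until a pair at chr2:59841238-59841558 and chr2:59841735-59841966, 176 bp apart, near the last TSS. The longest stretch without a region, 69.6 kb, lay directly upstream of the first TSS. Further upstream the list held chr2:59541640-59541914 and chr2:59522186-59522537, the latter with Dapl1 as the closest gene at 37693 bp. Downstream the only region was the promoter of Wdsub1, a gene for a WD repeat and U-box protein, at chr2:59882160-59882897.

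The motif matches of Tanc1 lay in introns and at internal start sites. The region chr2:59617099-59617327, 5138 bp downstream of the closest TSS, held the only octamer ATGCAAAT among the 91 regions, and a SOX motif on the opposite strand 59 bp away. Both motifs occurred in 506 regions (0.624%) of the whole list, with a median closest distance of 111 bp. In 146 regions (0.180%) they were at most 59 bp apart, a limit taken from this member. The region chr2:59697859-59698724 (866 bp) held 4 SOX motifs, the most of any member, of which the closest pair was 40 bp apart. Over the whole list 29 regions (0.0357%) had 4 or more, a limit set by this highest number among the members and without regard to width. ESRRB motifs were found at chr2:59633966-59634424, together with a SOX motif 187 bp away, and at chr2:59685462-59685785. The KLF motif occurred at the internal promoters chr2:59629991-59630257, with 2 matches, and chr2:59769101-59769423, with 1 match.

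Zfp536 (chr7:37472135-37773641, minus strand) is the longest of the genes with 302 kb, and had the fewest regions. Its 13 regions covered 5354 bp, or 1.08% of the 494 kb searched. Zfp536 was the closest gene for 6 of the 13, and other annotated genes, none of them protein-coding, were closer to 7. Of the 13, 10 were inside the gene, 2 near its 5′ end and 8 beyond a long empty stretch. Between chr7:37624121-37624304 and chr7:37770433-37770959 no region was listed over 146 kb, a stretch that took up 48.5% of the gene. None of the 4 TSSs within 79 bp of the 5′ end was inside a region, and the closest region was between 1455 and 1534 bp away. The promoter regions were instead at the downstream start sites: chr7:37770433-37770959 (527 bp, GC content 67.4%, 51 CpGs) covered the TSS 2859 bp from the 5′ end, and chr7:37771733-37772107 lay 940 bp upstream of another. Upstream of the gene the list held chr7:37775554-37775762, 2017 bp from the first TSS, and the 936 bp region chr7:37841800-37842735 at 68627 bp.

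The widest region of Zfp536, chr7:37568535-37569593, measured 1059 bp and lay entirely in the coding sequence of an exon of 2178 bp, of which it covered 48.6%. It had 40 CpGs, a GC content of 59.4% and none of the 4 motifs. A further region in coding sequence, chr7:37479324-37479638, was at the 3′ end of the gene. They were the only regions among the 91 that were centred in coding sequence of a member gene. SOX motifs occurred in 4 regions, with 2 matches, 243 bp apart, in the intron region chr7:37553710-37554131, which had a neighbour 296 bp away. No region of Zfp536 held an octamer, an ESRRB or a KLF motif.

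Tns3 (chr11:8431652-8664535, minus strand) is as long as Tanc1 at 233 kb, and had the most regions. Its 32 regions covered 13704 bp, or 3.46% of the 396 kb searched. Introns held 20, intergenic sequence 9 and promoters 3, and 29 of the 32 had Tns3 as the closest gene. The start of the gene was flanked rather than covered: chr11:8664639-8664779, 141 bp wide, lay 104 bp upstream of the first TSS and chr11:8663845-8664356 lay inside the gene, in an intron, with 38 CpGs and a GC content of 66.2%. The widest region in a promoter, chr11:8468570-8469017 (448 bp, GC content 62.5%, 25 CpGs), covered the last TSS, 195860 bp into the gene. The widest region of all members was chr11:8575253-8576339 in an intron, with 1087 bp, and held none of the 4 motifs. The region with the highest GC content of all members, 70.0%, was also in an intron, at chr11:8624513-8624845, 39856 bp from the closest TSS, and held 37 CpGs.

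Upstream of Tns3 8 regions reached out to 90201 bp from the first TSS, and 4 of these held SOX motifs. The region chr11:8719101-8719798 held 2 SOX motifs on the same strand 2 bp apart. Over the whole list 35 regions (0.0431%) had 2 SOX motifs at most 2 bp apart, a limit taken from this closest pair of the members. The median distance of the closest pair was 116 bp in the 1820 regions with at least 2. Repeats made up 50.1% of this Tns3 region. Its neighbour chr11:8723197-8723710 held 2 SOX motifs 71 bp apart, and the intron region chr11:8569327-8570102 held 2 that were 117 bp apart. Closer to the gene, chr11:8671717-8672120 held a SOX, a KLF and an ESRRB motif within the stretch shown above, a combination found in 48 regions (0.0592%) of the list. The intron region chr11:8584647-8585074 held a SOX and an ESRRB motif 267 bp apart.

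Dtd1 (chr2:144599897-144768758, plus strand) is the shortest of the genes with 169 kb, and shares its surroundings with other genes. Its 20 regions covered 9826 bp, or 2.90% of the 339 kb searched, and 10 lay inside the gene. For 13 of the 20 another gene had the closest TSS. Upstream of Dtd1 these included regions at the promoters of Polr3f, which encodes a subunit of RNA polymerase III (chr2:144527113-144528096), Rbbp9, a serine hydrolase gene (chr2:144550544-144550951), Sec23b, which encodes a COPII coat protein (chr2:144555686-144556644), and Smim26, a gene for a small membrane protein (chr2:144593117-144593453 and chr2:144593801-144594504). Downstream, chr2:144800608-144800796 was closest to Scp2d1 at 22954 bp and consisted of repeats over its whole length. The first TSS of Dtd1 lay inside chr2:144599588-144600466 (879 bp, 51 CpGs), which was centred 130 bp into the first exon and thus counted as an exon region. The only region centred in a promoter of Dtd1 itself, chr2:144677271-144677448, was 178 bp wide and without any CpG.

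The 8 regions in introns of Dtd1 had between 1 and 8 CpGs each. The widest of them, chr2:144714978-144716011, measured 1034 bp with 5 CpGs, and repeats made up 37.2% of it. SOX motifs occurred once each in 6 regions, all of them in introns of Dtd1. The widest of these, chr2:144759073-144759834 (762 bp), also held a KLF motif 198 bp away. No octamer and no ESRRB motif was found in the regions of Dtd1.

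**Figure D1:**
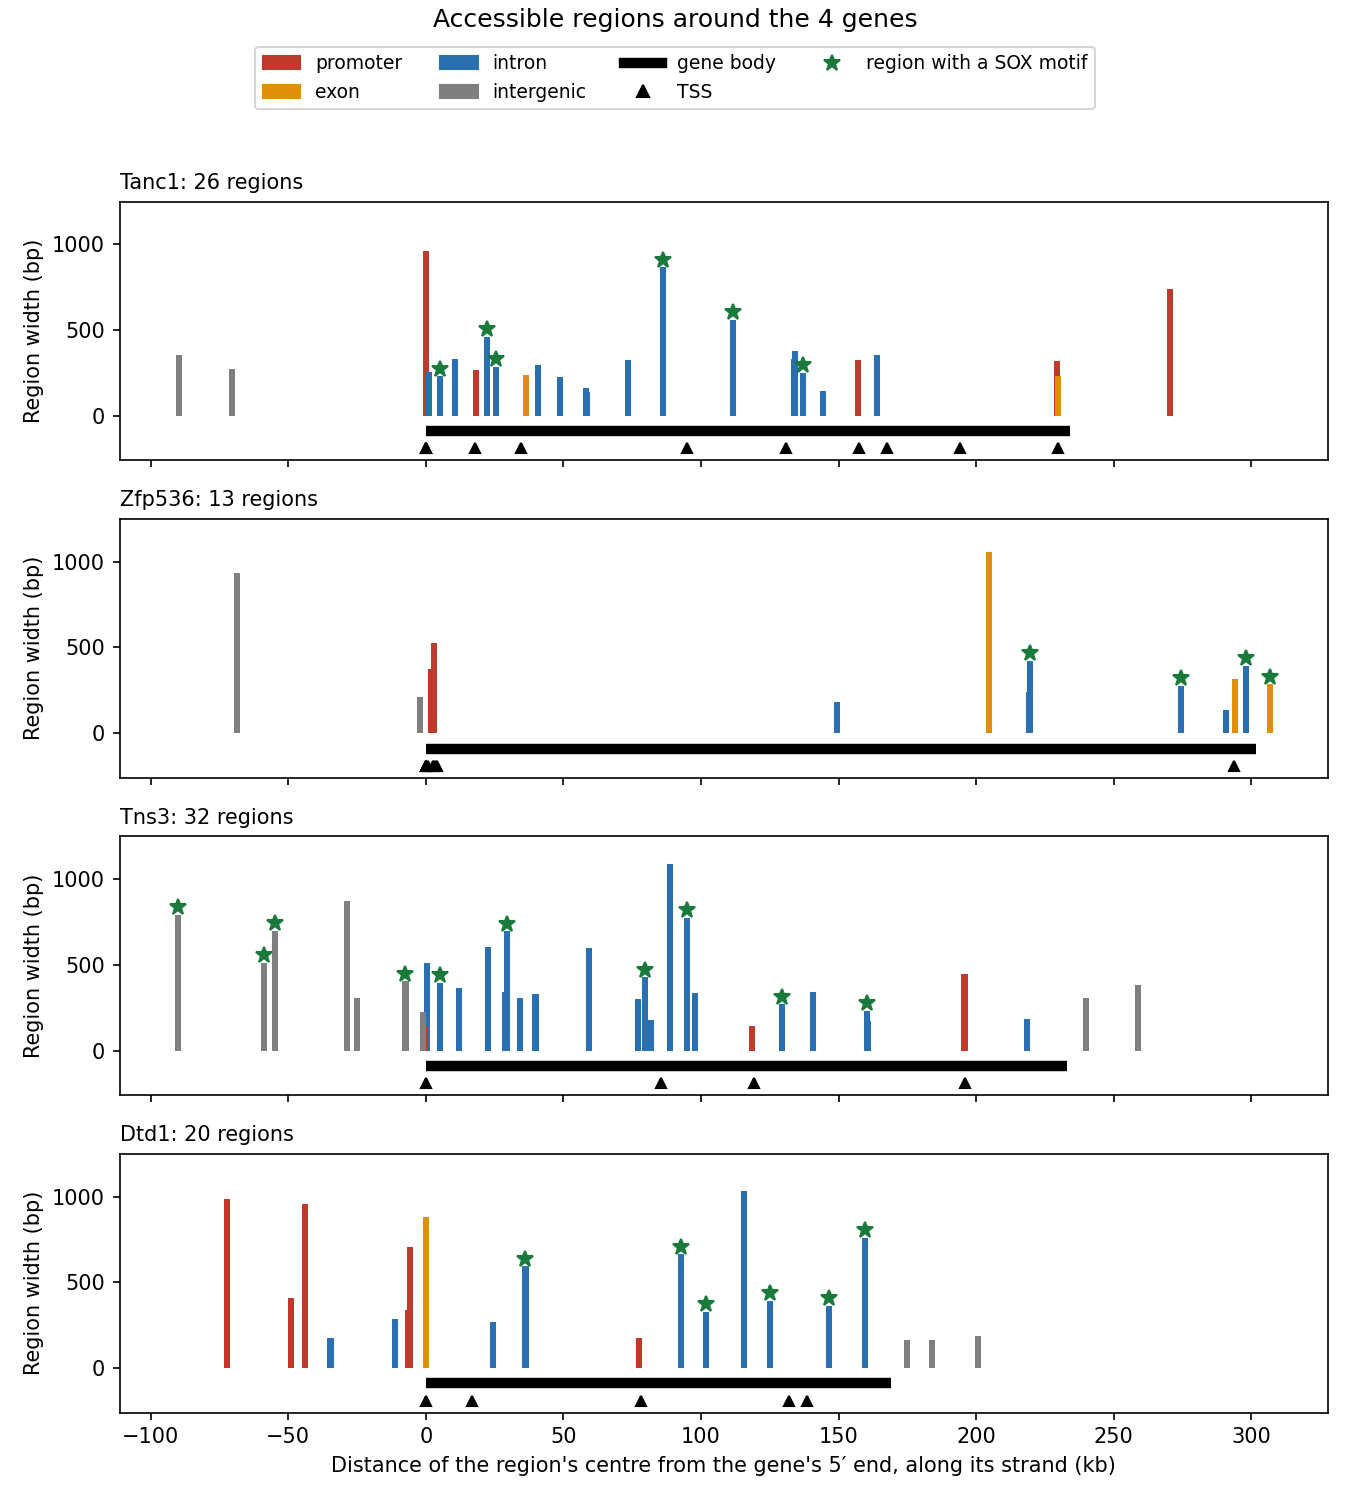
Accessible regions around the 4 genes, each drawn as a bar at the distance of its centre from the gene's 5′ end (kb, along the gene's strand) with its width as the height (bp) and its class as the colour. Zfp536 shows a stretch of 146 kb without a region inside the gene, and all 6 Dtd1 regions with a SOX motif (stars) lie inside the gene.

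Counted by the same rule, the 21938 protein-coding genes had a median of 11 regions, with quartiles of 6 and 17. Tns3 with 32 regions had more than 98.9% of them and Tanc1 with 26 more than 95.03%. Dtd1 had more than 83.0% and Zfp536 more than 55.4%. A count depends on the length searched, which was between 339 kb at Dtd1 and 494 kb at Zfp536. Per 100 kb searched, Tns3 had 8.08 regions, Tanc1 6.05, Dtd1 5.91 and Zfp536 2.63, where the median gene had 5.00. On this scale Tns3 was above 78.0% of the genes, Tanc1 above 60.7%, Dtd1 above 58.2% and Zfp536 above 26.01%. Among genes searched over a length within 10% of its own, each member was set beside a median of 13 regions, which Zfp536 equalled and the other 3 exceeded. Tns3 had more than 94.6% of its 392 genes of similar length, Tanc1 more than 86.6% of 307, Dtd1 more than 76.0% of 679 and Zfp536 more than 47.9% of 219.

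**Figure D2:**
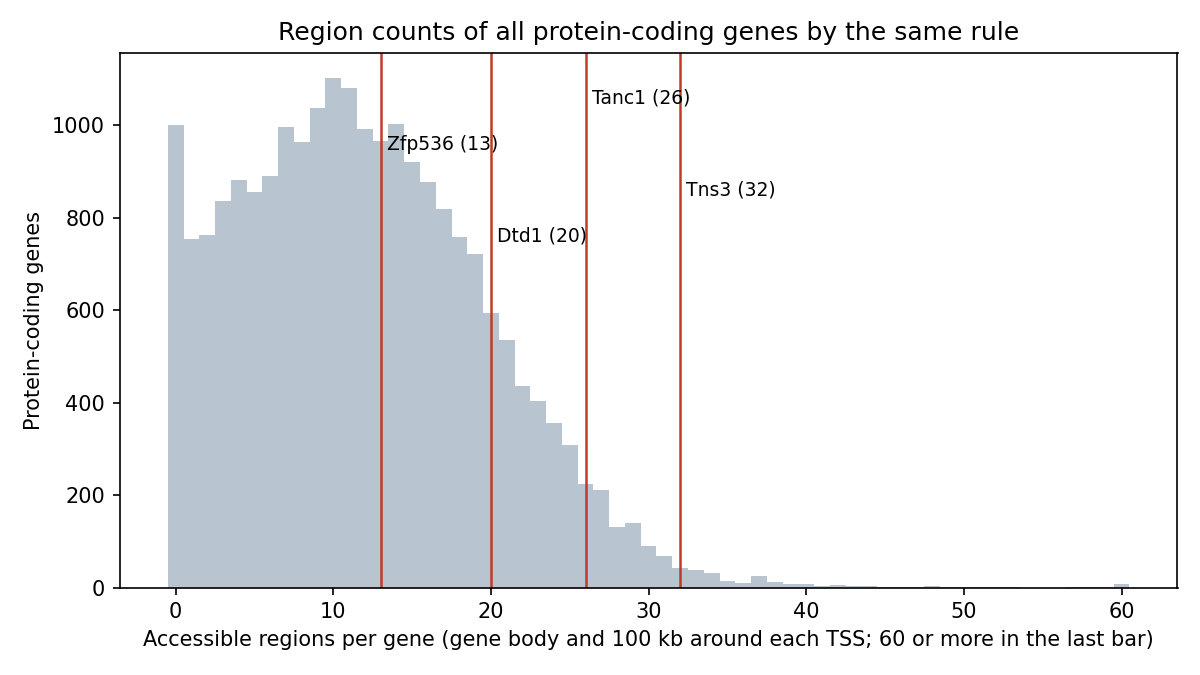
Number of protein-coding genes (vertical axis) by their number of accessible regions (horizontal axis), counted in the gene body and within 100 kb of each TSS. The red lines mark Zfp536 (13), Dtd1 (20), Tanc1 (26) and Tns3 (32), beside a median of 11 regions.

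Inside the gene bodies alone, the order was similar. Tns3 and Tanc1 had 22 regions each, or 9.45 and 9.40 per 100 kb, above 95.5% and 95.4% of the 2492 protein-coding genes of at least 100 kb, whose median was 2.65 per 100 kb. Dtd1 had 5.92 per 100 kb, above 83.7% of these genes. Zfp536, with 3.32 per 100 kb, was above 60.1%.

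By count, the relatives of the 4 genes had fewer regions than their member gene, apart from Zfp219, which had more. Tanc2, the paralogue of Tanc1, had 22 regions over 512 kb, of which 10 were inside the gene, fewer than the 22 inside Tanc1. The tensin genes Tns1, Tns2 and Tns4 had 28, 24 and 17 regions over 396, 215 and 215 kb, or 7.07, 11.2 and 7.89 per 100 kb, against 32 or 8.08 per 100 kb at Tns3. Tns1, of a length close to that of Tns3, had 20 regions in its body, where Tns3 had 22. Zfp219, another zinc finger gene, had 22 regions over 213 kb, 10 of them in promoters, while Zfp536 had 13 over 494 kb and 2 in promoters. Dtd2, which encodes a related tRNA deacylase, had 7 regions over 200 kb. A SOX motif was found in 4 of 22 regions at Tanc2, 7 of 22 at Zfp219, 3 of 28 at Tns1, 2 of 24 at Tns2, and in none of the 17 at Tns4 and the 7 at Dtd2. An octamer was found in no region of the 6 relatives.

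By position, 64 of the 91 regions lay inside the member genes, 20 upstream and 7 downstream. For 65 regions the member gene had the closest TSS, and 13 regions were more than 50 kb from any TSS of their gene. Introns held 53 of the 91 centres (58.2%, 95% Wilson interval 48.0 to 67.8%), against 35.05% of all regions. The search covers gene bodies by its rule, so that a higher share in introns is built into the comparison. Promoters held 16 (17.6%, 11.1 to 26.7%), against 20.96% of all regions, and of these 10 belonged to a member gene and 6 to a neighbour. With the TSSs of protein-coding transcripts alone, 9 members (9.89%, 5.29 to 17.7%) were in promoters, against 15.2% of all regions. Intergenic sequence held 16 (17.6%, 11.1 to 26.7%), against 35.2% of all regions, where a lower share is likewise built in by the rule. Exons held 6 (6.59%, 3.06 to 13.6%), against 8.76% of all regions. The intervals cover counting error only.

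The members were of ordinary width. Their median was 333 bp (95% order-statistic interval 305 to 375 bp), against 355 bp over all regions, with a range from 132 to 1087 bp. The medians of the loci ranged from 307 bp at Tanc1 to 376.5 bp at Dtd1, and the intervals of the 4 overlapped. In promoters the members had a median of 391.5 bp (267 to 738 bp), below the 600 bp of all promoter regions, which lay within this interval. Wider than 1000 bp were 3 members (3.30%, 1.13 to 9.25%), against 4.75% of all regions, 1 each at Zfp536, Tns3 and Dtd1, and none of these was in a promoter.

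The median GC content of the 91 regions was 51.5% (50.0 to 52.6%), against 51.9% in the whole list. Zfp536 stood at 57.4% (52.4 to 64.4%), above the medians of Tanc1 (48.3%), Dtd1 (48.4%) and Tns3 (51.7%), although its interval overlapped that of Tns3 (50.8 to 55.6%) and that of Tanc1 (46.6 to 52.8%). It did not overlap that of Dtd1 (46.4 to 50.7%). A region was called CpG-rich at a GC content of at least 50% and a ratio of observed to expected CpGs of at least 0.6. This held for 11 members (12.1%, 6.89 to 20.4%), against 19.7% of all regions. Of these 11, 7 were promoter regions, or 43.8% of the 16 members in promoters, against 60.9% of all promoter regions. They were at promoters of Tanc1 (1 region) and Zfp536 (2 regions) and at those of the neighbours Wdsub1, Polr3f, Sec23b and Smim26 (1 region each). Tns3 and Dtd1 had no CpG-rich region centred in a promoter of their own. Introns held the CpG-rich regions of Tns3, 2 in number, and 1 of Zfp536, chr7:37624121-37624304, with a GC content of 68.5%. The last was the region over the first TSS of Dtd1.

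**Figure D3:**
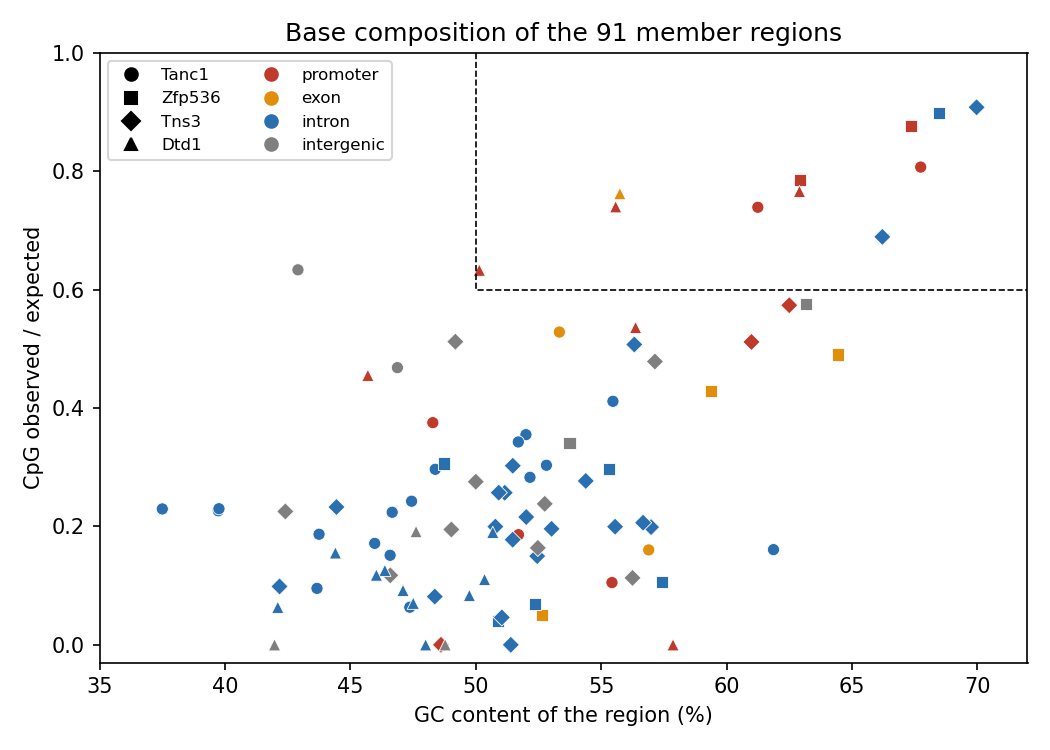
GC content (%) and ratio of observed to expected CpGs of the 91 regions, with the gene as the symbol and the class as the colour. The dashed lines enclose the 11 CpG-rich regions (GC content of at least 50% and ratio of at least 0.6), of which 7 are promoter regions.

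Repeats annotated in the genome sequence made up a median of 7.49% of a member region (5.45 to 11.6%), against 9.12% in all regions, and exceeded 50% in 7 members (7.69%, 3.78 to 15.0%), against 13.7% of all regions. In each locus the open regions differed in sequence from the rest of the searched window. GC content was 51.2% inside the Tanc1 regions and 44.6% outside, 57.9% and 46.0% at Zfp536, 52.4% and 45.9% at Tns3, and 51.1% and 43.2% at Dtd1. The share of repeats was lower inside at all 4, with 9.53% against 23.5% at Tanc1, 7.47% against 19.4% at Zfp536, 14.9% against 26.3% at Tns3 and 17.3% against 28.5% at Dtd1. These are values of a single pooled list, without replicates.

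Of the 30 annotated TSSs of the 4 genes, 15 had a region overlapping their promoter and 9 lay inside a region. Over all protein-coding genes the shares were 52.9% and 44.1% of 93513 TSSs. At Tanc1 6 of 11 TSSs were inside a region, including the 3 at its start. At each of Zfp536, Tns3 and Dtd1 it was 1 TSS, of 10, 4 and 5. The promoters that RefSeq gives for these genes around their starts numbered 5, with all 4 genes matched. A region overlapped 1 of 2 for Tanc1, the single promoters of Tns3 and Dtd1, and not that of Zfp536. Among all RefSeq promoters 44.9% were overlapped.

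Motifs were searched on both strands, and a match describes the letters in the region without showing binding. The SOX motif was found in 26 of the 91 regions (28.6%, 95% Wilson interval 20.3 to 38.6%), against 16.0% of all regions. The share depends on the letters searched, in the members and in the whole list: the 6-letter cores CATTGT and CTTTGT were found in 51.6% of the members and 39.3% of all regions. Because wide regions hold a motif more often, the share was also taken over all regions within 10% of the width of each member, which gave a mean of 15.7%, or 14.3 regions in place of 26. It was found in 6 of 26 regions at Tanc1, 4 of 13 at Zfp536, 10 of 32 at Tns3 and 6 of 20 at Dtd1. All 26 were outside promoters, where they made up 34.7% of 75 regions (24.9 to 46.0%), against 16.6% of all regions outside promoters. None of the 16 promoter regions held the motif, against 13.9% of all promoter regions. With only 16 regions, no conclusion is drawn from this. The 33 SOX matches comprised 14 of CCATTGT and 19 of CCTTTGT.

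The other motifs were rare. The octamer was found in 1 region (1.099%, 0.194 to 5.97%), against 2.66% of all regions and 2.58% of those of the same width, so that 2.34 regions would correspond to the latter share. The share rests on a single region and moved with the motif's length: the 7-letter core ATGCAAA was found in 5.49% of the members and 7.65% of all regions. The ESRRB motif was found in 4 regions (4.40%, 1.72 to 10.8%), 2 each at Tanc1 and Tns3, against 2.24% of all regions and 2.21% at the same width. Of these 4 regions 3 also held a SOX motif, a pair present in 399 regions (0.492%) of the list. The KLF motif was found in 6 regions (6.59%, 3.06 to 13.7%), 3 of them at Tns3, against 7.73% of all regions and 7.57% at the same width. With none of the 4 motifs were 60 members (65.9%), against 74.3% of all regions.

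**Figure D4:**
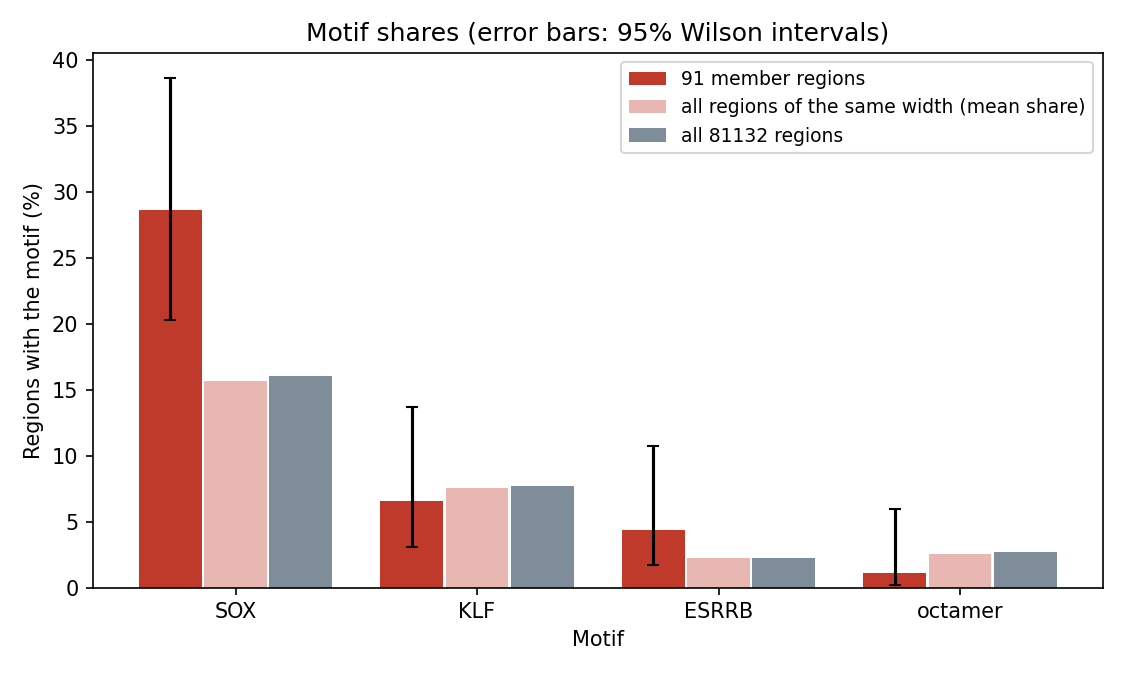
Share of regions (%) with each motif among the 91 members (red, with 95% Wilson intervals), among all regions within 10% of the members' widths (mean share, pink) and among all 81132 regions (grey). The interval of the SOX share, 20.3 to 38.6%, lies above 15.7% and 16.0%, and those of the other motifs include both other bars.

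Member regions with a SOX motif were wider and poorer in GC than those without. Their median width was 413 bp against 321 bp, their median GC content 47.9% against 52.8%, and their median distance to the closest TSS 8979 bp against 6024 bp. In the whole list the same medians were 466 bp against 335 bp, 50.0% against 52.3% and 7982 bp against 5983 bp.

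Within the searched sequence of all 4 loci, 665 SOX matches were present, and 33 of them were inside accessible regions, which made up 2.30% of that sequence. At Tns3 7.07% of the SOX matches were inside regions, at Tanc1 6.25%, at Dtd1 4.62% and at Zfp536 2.42%, in each case above the share of the bases that the regions covered. Per 10 kb, the density of SOX matches inside regions was 9.69 at Tanc1, 9.34 at Zfp536, 9.49 at Tns3 and 6.11 at Dtd1, and in the rest of the window 3.21, 4.14, 4.47 and 3.77. The values inside regions rest on 9, 5, 13 and 6 matches. Such densities are not given here for other genes or for the whole list. The difference is therefore not shown to be particular to these loci. For the ESRRB motif 4 of 31 matches, and for the KLF motif 7 of 134, were inside regions. For the octamer it was 1 of 115, and the 42 octamers in the window of Zfp536, the 23 at Tns3 and the 26 at Dtd1 were all outside the listed regions.

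**Figure D5:**
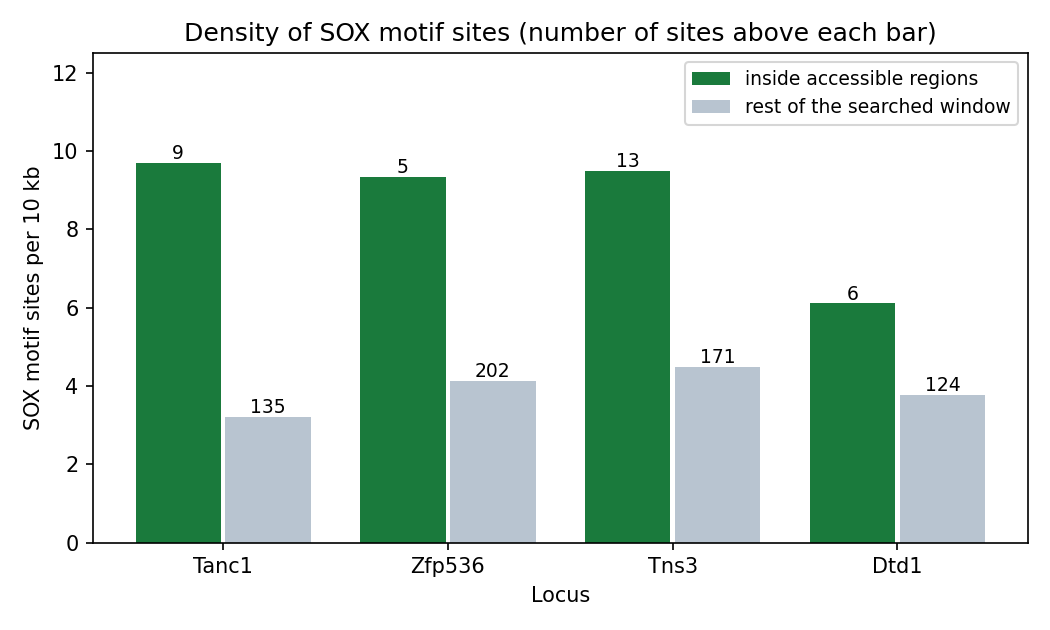
SOX motif matches per 10 kb inside the accessible regions (green) and in the rest of the searched window (grey) of each locus, with the number of matches above each bar. The density inside regions was between 6.11 (Dtd1) and 9.69 (Tanc1) and higher than outside at all 4 loci. Other genes are not shown for comparison.

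Regions also stood in close pairs. Another region was at most 500 bp away from 16 members (17.6%, 11.1 to 26.7%), against 15.1% of all regions. Between neighbours of the same locus there were 3 such gaps at Tanc1, 3 at Tns3, 1 at Zfp536 and 1 at Dtd1, and the smallest was 8 bp, between chr2:59745640-59745971 and chr2:59745980-59746354 in Tanc1. The median gap between neighbours was 6257 bp at Tns3, 7048 bp at Tanc1, 11073.5 bp at Zfp536 and 12325 bp at Dtd1.

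With 200 kb in place of 100 kb around each TSS, Tanc1 had 33 regions, Zfp536 20, Tns3 35 and Dtd1 27. At Tanc1 the outermost member upstream was 89680 bp from a TSS and the next region beyond the limit of 100 kb 140736 bp. At Tns3 these distances were 90201 and 147180 bp, at Dtd1 72292 and 140676 bp, and at Zfp536 68627 and 120424 bp. Downstream of Dtd1 the next region, chr2:145139751-145139900, followed only at 401412 bp from a TSS of the gene.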

How the data were processed

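ATAC-seq reads of the 12 libraries were aligned by the authors to mm10 with STAR (2.5.3a), duplicates were removed with Picard, and peaks were called per library with MACS2 (2.1.1.20160309) and merged. The authors then dropped peaks that overlapped peaks of a ChIP-seq input. The deposited list has 3 columns, chromosome, start and end, and neither scores nor levels. The reads behind a region are therefore not known, and changes between populations were not analysed here, nor were the 4 ChIP-seq samples. The methods name no shift of read ends for Tn5. No region passed a chromosome end of GRCm38. Regions were placed on GENCODE M21 with Python (3.11.15), numpy (2.4.6) and pandas (2.3.3), sequences were read with pysam (0.24.0), and intervals were computed with scipy (1.17.1). Plots used matplotlib (3.10.9). Counting and motif search were tested on simulated data. No comparison was tested, because the list pools all libraries. Neighbouring genes were named when protein-coding and closest to a member region. Regions given with sequence were the widest in a promoter of each gene, the widest outside promoters, those with an octamer and those with the most SOX motifs, apart from the stretches marked as chosen after their values were seen. The members, lists and alternatives were chosen with earlier results of these data known. The alternatives were other windows, TSSs, width limits and motif letters.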

Additional observations from a re-analysis of the deposited data

How the results depend on the processing

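The region counts of the 4 genes and, over all members, the promoter share, the median width and GC content and the 4 motif shares were recomputed with other windows and region sets, and some of them with other TSSs or motif letters, 71 alternatives for 11 results. The other values were not recomputed. In 65 of the 71 a count moved by less than 1.5 times or a share or median stayed within its 95% interval. With 200 kb around each TSS, Zfp536 had 20 regions in place of 13. With the gene body alone, Dtd1 had 10 regions in place of 20. With only the regions whose closest TSS was that of the member gene, Zfp536 kept 6 and Dtd1 7. With promoters of protein-coding transcripts alone, 9.89% of the members were promoter regions in place of 17.6%, and over all regions it was 15.2%. With the 6-letter SOX cores CATTGT and CTTTGT, 51.6% of the members held a match in place of 28.6%, as a shorter motif must match at least as often, and over all regions it was 39.3%. The octamer share stayed within its wide interval but rose from 1.099% to 2.61% with 200 kb and to 5.49% with the 7-letter core. A count of regions cannot fall with a wider window. A motif share can move either way with the window: with 200 kb the SOX share was 25.2% and the KLF share 6.09%, both lower than before. Why the octamer share rose with 200 kb was not tested. No paired analysis was possible because the list pools all libraries and holds no values per library. A stricter peak threshold could not be applied, since the list has no scores. An absent region can reflect few reads or the removal of peaks found in the input, and a region called in a single library counted like one called in all 12.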
